A study of Mus musculus with 10 samples.

Results

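Open chromatin at the genes of Gdf11, its receptors and its extracellular antagonists was followed by ATAC-seq, in which a transposase cuts accessible DNA, while mouse embryonic stem cells became neuromesodermal progenitors. The 10 genes were the ligands Gdf11 and Mstn, the receptors Acvr2a, Acvr2b, Acvr1b and Tgfbr1, and the antagonists Wfikkn1, Wfikkn2, Fst and Fstl3. A counted region was given to the nearest protein-coding gene span within 50000 bp, which gave these genes 89 of the 246799 regions of the series: 16 for Tgfbr1, 14 for Acvr1b, 13 for Acvr2b, 12 for Fst, 11 for Acvr2a, 9 for Wfikkn2, 6 for Mstn, 5 for Gdf11, 2 for Wfikkn1 and 1 for Fstl3. Of these, 51 overlapped the span of their gene and 38 lay outside it. A region near a gene need not regulate it, and accessibility is not expression.

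All libraries came from ES-Bruce4, an embryonic stem cell line of the C57BL/6 strain, and the labels give the genotype of every library as WT, with no allele change named. Every group received bFgf at 10 ng/ml from day 0 in N2B27 medium, and CHIR99021, an activator of Wnt signalling, at 5 µM was listed from day 2. The 5 groups had 2 libraries of 50000 cells each: day 2, which the labels call epiblast stem cells, and then day 3, day 6 and day 7. The last group was also taken on day 7 but had human Gdf11 at 50 ng/ml for its last 24 h. The stem cells had been kept on mouse embryo fibroblasts and were depleted of them before differentiation. Nothing in the labels ties the libraries of a group to separate cultures, and the p-values below cover only the spread between libraries, which may be technical. In these bulk samples, fewer cells with an open region and less opening per cell cannot be told apart.

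Gdf11 and its close relative myostatin, the product of Mstn, are secreted ligands of the TGF-beta superfamily. They bind the type II receptors encoded by Acvr2a and Acvr2b, which then activate the type I receptors Alk4 (Acvr1b) and Alk5 (Tgfbr1), and these phosphorylate Smad2 and Smad3. In the mouse embryo Gdf11 is needed for the passage from trunk to tail and for the position of the hindlimbs. Wfikkn1 and Wfikkn2 encode large secreted proteins that bind myostatin and Gdf11, and Fst and Fstl3 encode follistatin and follistatin-like 3, which bind activins as well as these ligands.

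The promoters of 3 genes are shown because their regions carry the main differences: Gdf11 itself, Wfikkn1, which changed most with Gdf11, and Acvr1b, where regions within the gene changed and the promoter region did not pass the test. Each is a RefSeq window on build GRCm38.p6 from 250 bases before the start site to 50 bases from it, written 5′ to 3′ on the strand of the gene (Gdf11 at chr10:128891669-128891968, minus strand; Wfikkn1 at chr17:25880809-25881108, minus strand; Acvr1b at chr15:101173822-101174121, plus strand). Capitals mark matches, on either strand, to 4 motifs: CAGAC (the SMAD box), GGCGCC (a GC-rich SMAD site), CTTTGAT (a TCF/LEF motif of Wnt signalling) and TTTATNG (a Cdx motif).
Gdf11: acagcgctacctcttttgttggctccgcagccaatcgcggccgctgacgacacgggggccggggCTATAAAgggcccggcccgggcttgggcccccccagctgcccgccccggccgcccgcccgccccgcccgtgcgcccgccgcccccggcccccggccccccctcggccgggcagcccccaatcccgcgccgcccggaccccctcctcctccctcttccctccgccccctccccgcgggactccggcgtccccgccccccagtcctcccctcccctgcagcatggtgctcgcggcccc
Wfikkn1: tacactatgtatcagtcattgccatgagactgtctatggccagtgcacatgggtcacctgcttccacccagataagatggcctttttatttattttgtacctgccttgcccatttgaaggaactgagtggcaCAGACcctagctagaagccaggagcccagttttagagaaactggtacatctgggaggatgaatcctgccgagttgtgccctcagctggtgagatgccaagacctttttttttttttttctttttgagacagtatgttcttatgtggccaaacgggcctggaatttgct
Acvr1b: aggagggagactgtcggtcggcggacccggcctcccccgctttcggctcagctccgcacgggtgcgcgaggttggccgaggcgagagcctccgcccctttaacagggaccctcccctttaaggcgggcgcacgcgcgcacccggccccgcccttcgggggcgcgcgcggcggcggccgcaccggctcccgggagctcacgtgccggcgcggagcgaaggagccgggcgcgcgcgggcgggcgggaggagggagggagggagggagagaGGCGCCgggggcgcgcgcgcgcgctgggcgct
The Gdf11 window was 80.7% G and C and held no SMAD match. Its only match was a Cdx one at -186. The Wfikkn1 window, at 46% G and C, held 1 SMAD box at -118, and the Acvr1b window, at 79.7%, held the GC-rich SMAD site at 19 bases into the transcript. RefSeq gave 10 windows for 9 of the 10 genes, with 2 for Tgfbr1. The SMAD box was in 7 of the 10 windows, against 48.4% of 21262 windows of the same length. The GC-rich site was in 2, against 15.3%, the Cdx motif in 2, against 9.58%, and the TCF/LEF motif in 0, against 3.22%. A match is a run of letters and not a bound site. Windows and accessible regions met to different degrees. The Acvr1b window, the Acvr2a and Acvr2b windows and the first Tgfbr1 window lay wholly inside a region. In the Gdf11 window 196 of 300 bases lay in 2 regions, and in the Wfikkn1 window 17 of 300 did, while the windows of Mstn, Wfikkn2 and Fstl3 and the second Tgfbr1 window met none of their own regions.

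Counts over all regions ran from 7150334 to 12335735 per library, and in each group replicate 1 was the deeper library. Mitochondrial regions took 9.24% to 13.4% of them. The first check was on cell type markers, as summed accessibility in CPM, the count scaled to library size and TMM factor. The 6 epiblast markers were highest on day 2 (411 to 464 CPM per library, against 160 to 268 in all other groups), and the 10 neuromesodermal progenitor markers on day 3 (698 to 710). No marker was at 0 in any list. The 5 endoderm markers lay between 155 and 255 CPM, the 5 presomitic mesoderm markers between 155 and 242, and the 7 fibroblast markers between 146 and 208. The scale mattered for the Gdf11 comparison: with library size alone in place of TMM, the median log2 change over all genes between the day 7 groups rose by 0.16. The genes called higher and lower with Gdf11 then numbered 986 and 590 in place of 393 and 2134, and the regions 2626 and 2649 in place of 1883 and 4581. Between day 7 and day 6 the genes went from 671 and 130 to 322 and 305 and the regions from 1686 and 358 to 1084 and 459. Against day 6, the Gdf11 genes went from 123 and 242 to 259 and 189 (139 and 178 with RLE factors), and RLE factors turned the day 3 genes from 2331 and 1986 to 1760 and 2491. No call on a gene of the Gdf11 group of 10 changed its direction under any scaling tried.

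Between 1 and 4 of the 10 genes passed the test in each comparison, and Mstn, Acvr2a and Tgfbr1 passed in none. From day 2 to day 3, 4 of the 10 genes rose and 0 fell, where 12.3% of 18981 tested genes rose and 10.5% fell. From day 3 to day 6, 2 rose and 2 fell (9.51% and 10.8% of all genes). From day 6 to day 7, 1 rose and 0 fell (3.54% and 0.685%). With Gdf11 against untreated day 7, 0 rose and 2 fell (2.07% and 11.2%), and against day 6, 1 rose and 1 fell (0.648% and 1.27%). In these counts a gene is its regions summed, and a call is a Benjamini-Hochberg adjusted p under 0.05 in edgeR's quasi-likelihood test. The median log2 changes of the 10 genes were 0.25, 0.02, 0.06, -0.18 and -0.14 in these 5 comparisons, beside 0.00, -0.02, 0.05, -0.10 and -0.04 over all genes. The Gdf11 comparisons with day 7 and with day 6 share the Gdf11 libraries, so they are not independent of each other.

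**Figure D1:**
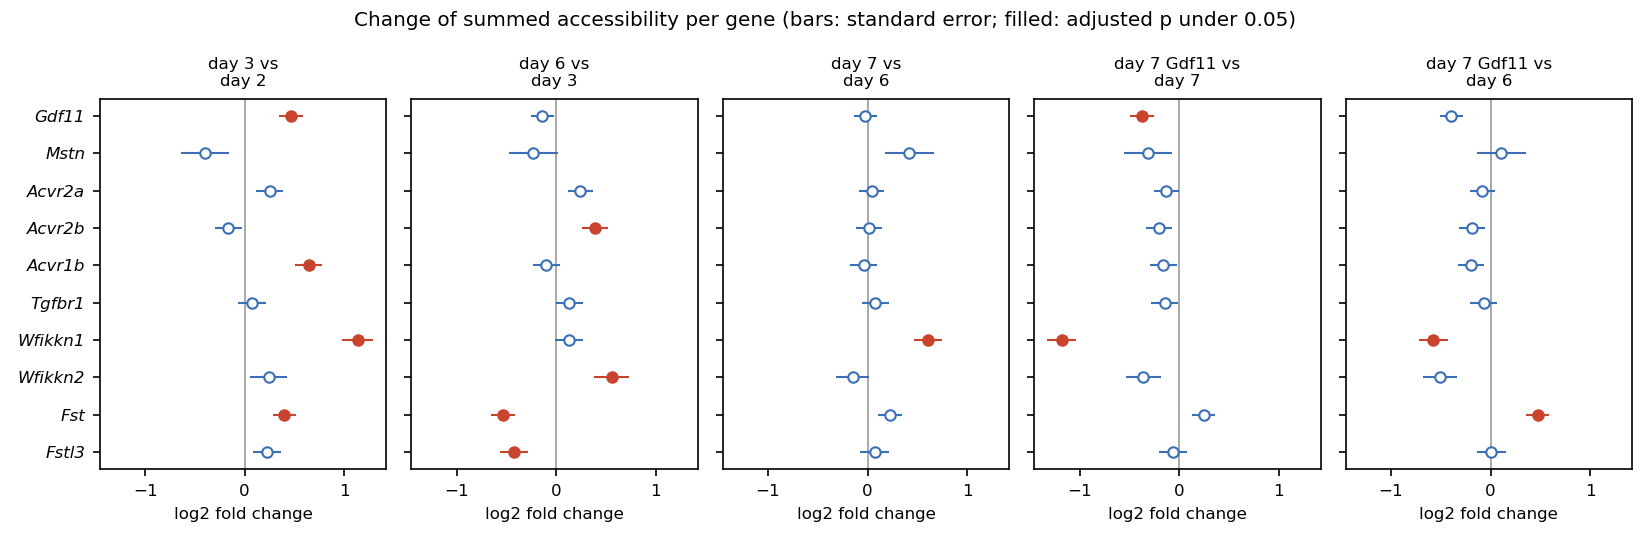
Log2 change of the summed accessibility of each of the 10 genes (x axis) in the 5 comparisons (panels), with standard errors as bars, from 2 libraries a group. Filled points passed an adjusted p of 0.05. The point farthest to the left is Wfikkn1 with Gdf11 against day 7 (-1.18), and the point farthest to the right is Wfikkn1 on day 3 against day 2 (1.13).

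Single regions were sparser. Of the 89 regions, 65 (73%) had enough counts to be tested, against 70.2% of all regions. The other 24 held 21 to 76 counts over the 10 libraries. From day 2 to day 3, 10 rose and 1 fell (8.82% and 4.35% of 173175 tested regions). From day 3 to day 6, 4 rose and 4 fell (9.19% and 6.05%), and from day 6 to day 7, 1 rose and 0 fell (0.974% and 0.207%). With Gdf11, 2 rose and 3 fell against day 7 (1.09% and 2.65%), and 1 rose and 2 fell against day 6 (1.06% and 1.34%). These 28 calls fell on 20 regions of 9 genes, with no overlap between the libraries compared in any call. Passing the test with 2 libraries a group favours such a gap, and its share over all called regions was not counted. Of the 20 regions, 1 met a promoter window of its own gene, by 17 bases at Wfikkn1. Fst has no such window, so its 2 called regions could not be counted there. All 7 regions that met a promoter window of their gene were tested. Peaks were called in all 10 libraries at 17 of the 89 regions (19.1%, against 13.1% of all regions), 6 of them at promoter windows, and in 1 library only at 32.

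Gdf11 opened between day 2 and day 3 and was lower after Gdf11 itself had been given. Its summed level was 57.6 and 62.9 CPM in the day 2 libraries, 77.6 and 89.8 on day 3, 75.0 and 76.6 on day 6, 77.3 and 71.7 on day 7, and 49.0 and 67.0 with Gdf11. The day 3 libraries lay above both day 2 libraries, and both Gdf11 libraries lay below both untreated day 7 libraries, though replicate 2 by far less than replicate 1. The rise by day 3 was 1.39-fold (log2 0.47 ± 0.12, edgeR adjusted p = 0.00421). The fall with Gdf11 was 1.29-fold (log2 -0.37 ± 0.12, adjusted p = 0.0343), beside -0.10 for the median gene. That fall was lost without replicate 1 of the Gdf11 group (-0.18, adjusted p = 0.484), without day 7 replicate 1 (-0.32, 0.201) or replicate 2 (-0.45, 0.061), with library size alone (-0.22, 0.197) and in DESeq2 (-0.36, 0.0693). The rise was lost without day 2 replicate 1 (0.40, adjusted p = 0.0535) and without day 3 replicate 2 (0.35, 0.061). Against day 6 the level with Gdf11 differed by -0.39 ± 0.12 and missed the threshold (adjusted p = 0.0784). Leaving out 1 library moved this difference between -0.65, without Gdf11 replicate 2, and -0.18.

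Within Gdf11, 2 regions downstream of the start passed the test, and both regions at the promoter window missed the threshold in each of the 5 comparisons. The region centred 1306 bp into the gene (chr10:128890187-128890636) had 0.523 and 3.27 CPM on day 2 and 9.34 and 11.8 on day 3. Day 2 was far below all other groups, which lay between 6.42 and 11.8 CPM. The rise was 5.85-fold (log2 2.55 ± 0.37, edgeR adjusted p = 4.05e-07). Its size rested on the day 2 libraries: it was 1.67 on the log2 scale without day 2 replicate 1 and 4.24 without replicate 2. The authors' lists held peaks in this region in both day 3 and both day 7 libraries, in day 6 replicate 1, and in no day 2 or Gdf11 library. The region centred 2501 bp into the gene (chr10:128888840-128889594), the most accessible one, had 37.2 and 37.5 CPM on day 2, 49.8 and 50.2 on day 3, 35.7 and 29.0 on day 6, 35.5 and 35.1 on day 7, and 18.8 and 27.6 with Gdf11. The day 3 libraries were the highest and the Gdf11 libraries the lowest of the 10. It fell from day 3 to day 6 (log2 -0.62 ± 0.16, adjusted p = 0.00519) and with Gdf11 against day 7 (-0.61 ± 0.17, adjusted p = 0.0238). The fall with Gdf11 was lost without replicate 1 of the Gdf11 group (-0.38, adjusted p = 0.49), without either day 7 library (-0.61, 0.107 and -0.65, 0.0811) and with library size alone (-0.46, 0.0822). The earlier fall was lost without day 6 replicate 2 (-0.48, 0.127). At the promoter window, the region centred 274 bp upstream had group means from 9.72 ± 0.30 (SD, n = 2) on day 2 to 19.0 ± 5.06 CPM on day 6, and the one at 56 bp from 4.26 ± 1.23 to 7.51 ± 2.15. From day 3 to day 6 the first passed without day 3 replicate 2 (log2 0.84, adjusted p = 0.0196) or day 6 replicate 1 (0.85, 0.0228), and the second without day 3 replicate 2 (1.34, 0.0193).

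**Figure D2:**
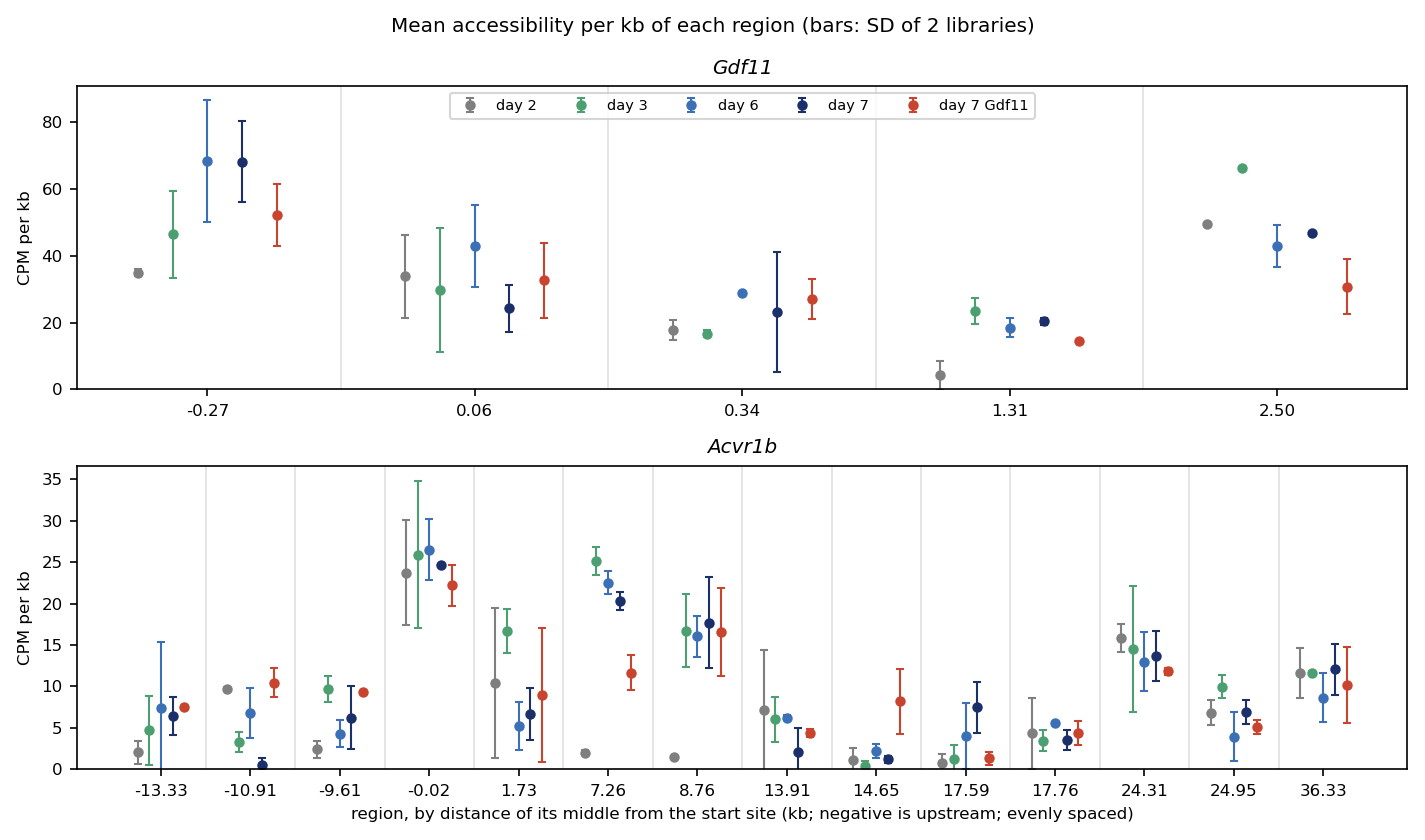
Mean accessibility per kb of region width (y axis, CPM per kb, bars SD of 2 libraries) at each region of Gdf11 and Acvr1b, ordered along x by the distance of its middle from the start site and drawn evenly spaced. In Gdf11 the region 2501 bp into the gene was lowest with Gdf11. In Acvr1b the regions at 7265 and 8758 bp were near 0 on day 2 and open in every later group, while the group means at the promoter region lay close together.

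Mstn, which encodes myostatin, was the least accessible of the 10 genes and none of its summed changes passed the test. Its libraries held 12.1 and 12.9 CPM on day 2, 11.3 and 7.22 on day 3, 9.59 and 6.16 on day 6, 11.6 and 9.87 on day 7, and 7.93 and 9.58 with Gdf11. Both day 2 libraries were above all others, and untreated day 7 lay above day 6 and above the Gdf11 group without overlap. Of its 6 regions none overlapped its span. The most accessible one lay at -8360 bp from the start (chr1:53053157-53053402) at a mean of 2.02 to 4.15 CPM, with no call. From day 3 to day 6 a region at chr1:53086054-53086280, 24527 bp from the start, rose from 0.314 ± 0.036 to 2.12 ± 0.284 CPM (adjusted p = 0.00532). One at chr1:53111786-53112054 fell from 3.37 ± 0.884 to 1.05 ± 0.324 CPM (adjusted p = 0.0168). The first was lost without day 6 replicate 1 (log2 2.55, adjusted p = 0.0508). The second was lost without day 3 replicate 1 (-1.32, 0.233) and without day 6 replicate 1 (-2.03, 0.0699) or replicate 2 (-1.41, 0.145).

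**Figure D3:**
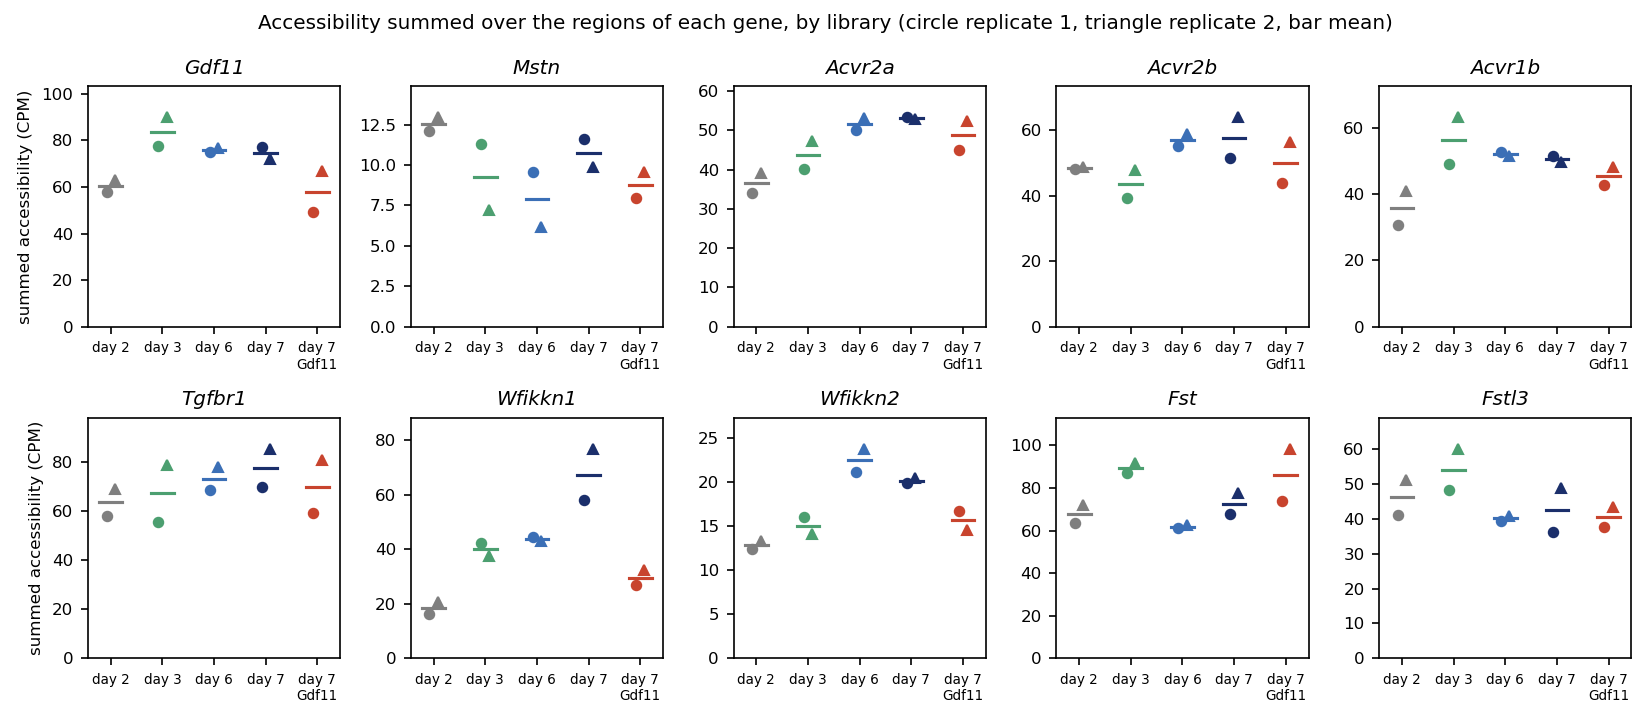
Summed accessibility (CPM, y axis) of each of the 10 genes in each of the 10 libraries, by group. Circles are replicate 1, triangles replicate 2 and bars the group mean. Wfikkn1 runs from 16.2 CPM on day 2 to 76.7 on day 7 and is at 26.8 and 32.3 with Gdf11, while the Tgfbr1 groups overlap.

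The receptor genes were open from day 2 onward at their promoters, and their changes lay in regions within or near the genes. Acvr1b, the gene of the type I receptor Alk4, had 30.7 and 40.9 CPM on day 2, 49.2 and 63.1 on day 3, 52.6 and 51.4 on day 6, 51.4 and 49.8 on day 7, and 42.8 and 48.1 with Gdf11. Both day 2 libraries lay below all others, and the 2 day 3 libraries stood farthest apart. The rise by day 3 was 1.56-fold (log2 0.64 ± 0.14, edgeR adjusted p = 0.000776), and without day 2 replicate 1 it was 0.43 with an adjusted p of 0.0501.

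A pair of regions inside Acvr1b rose in the same step. The region centred 7265 bp from the start (chr15:101181096-101181578) had 0.836 and 1.05 CPM on day 2 and 11.6 and 12.7 on day 3. It then had 11.4 and 10.4 CPM on day 6, 10.2 and 9.43 on day 7, and 4.90 and 6.35 with Gdf11. It was nearly closed on day 2 and 12.8-fold more open on day 3 (log2 3.68 ± 0.35, edgeR adjusted p = 4.23e-12), the smallest p of any region of the 10 genes in any comparison. Both Gdf11 libraries lay below every day 3, day 6 and untreated day 7 library. The Gdf11 level was 1.95-fold lower than on day 6 (log2 -0.96 ± 0.26, adjusted p = 0.0275), and against day 7 the difference of -0.81 ± 0.26 missed the threshold (adjusted p = 0.0714). The call against day 6 was lost when any 1 of the 4 libraries was left out (log2 -1.18 to -0.79, adjusted p 0.0621 to 0.395) and in DESeq2 (-0.94, 0.0965).

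The second, centred 8758 bp from the start (chr15:101182687-101182973), had 0.418 and 0.392 CPM on day 2 and 5.69 and 3.90 on day 3, 11.7-fold higher (log2 3.55 ± 0.52, edgeR adjusted p = 6.52e-07). It stayed between 3.66 and 6.19 CPM in the later libraries, and with Gdf11 against day 7 it differed by -0.05 ± 0.35. At both regions the authors' lists held a peak in all 8 libraries from day 3 on and in neither day 2 library. The peak fold enrichment at the first, the authors' own value, was 8.14 to 10.5 in the day 3, day 6 and untreated day 7 libraries and 5.44 and 5.82 with Gdf11. The Acvr1b promoter region (chr15:101173581-101174516), whose promoter sequence is printed above, had group means of 20.8 to 24.8 CPM, and its log2 changes lay between -0.25 and 0.11, with none past the threshold.

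Upstream of Acvr1b, 2 weaker regions were called. One at -9606 bp from the start (chr15:101164340-101164592) rose from 0.601 ± 0.259 on day 2 to 2.44 ± 0.391 CPM on day 3 (edgeR adjusted p = 0.0195). One at -10910 bp (chr15:101163094-101163231) held 1 count over both day 7 libraries and 30 over both Gdf11 libraries, a ratio of 25.4 with an exact 95% counting interval of 4.22 to 1037 (adjusted p = 0.0185). On day 2 its mean was 1.33 ± 0.0364 CPM, beside 1.44 ± 0.247 with Gdf11. The first call was lost without day 2 replicate 1 (log2 1.63, 0.205) or day 3 replicate 1 (1.83, 0.155). The second was lost without day 7 replicate 1 (3.16, 0.264) and without Gdf11 replicate 1 (adjusted p = 0.0541) or replicate 2 (4.14, 0.0862).

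**Figure D4:**
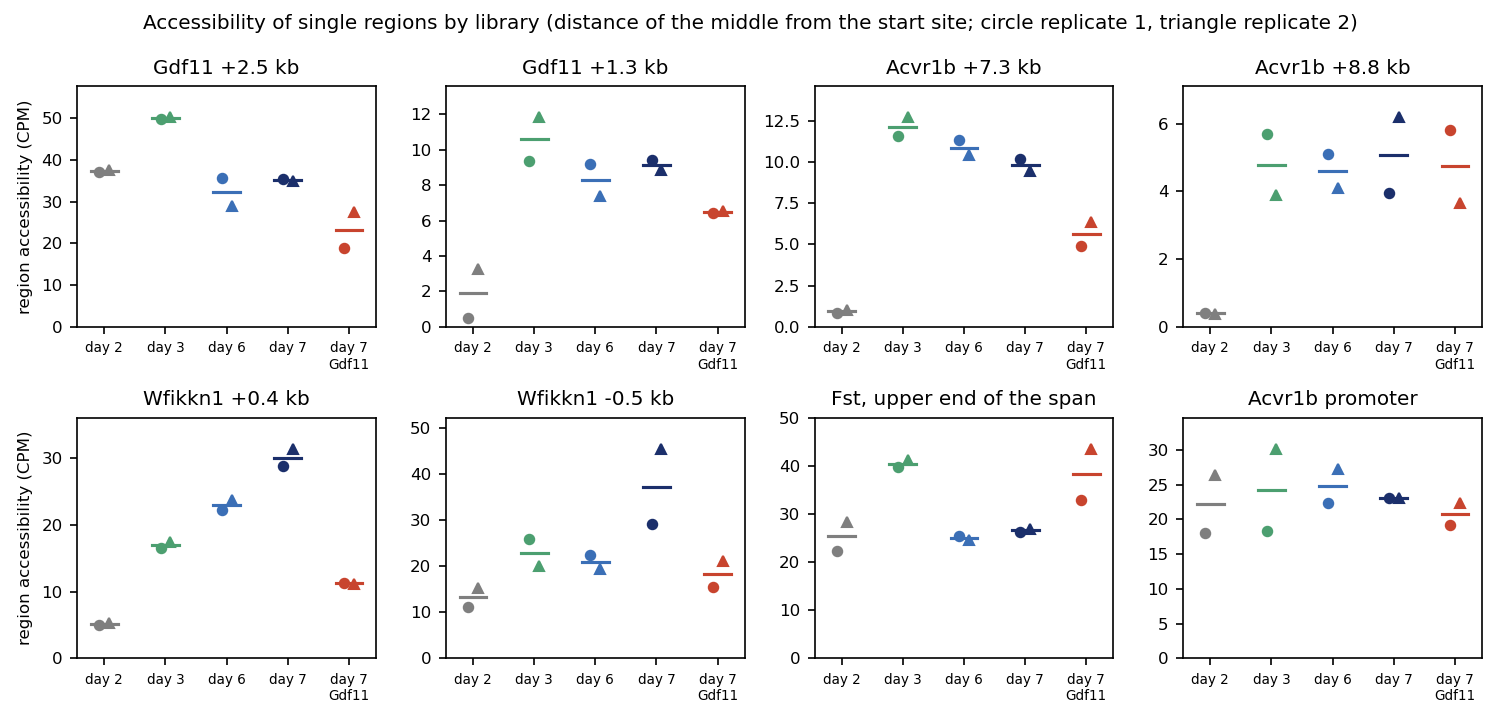
Accessibility (CPM, y axis) in each library of single regions of Gdf11, Acvr1b, Wfikkn1 and Fst, by group, with the distance of the region's middle from the start site in the titles. Circles are replicate 1, triangles replicate 2 and bars the group mean. The Wfikkn1 region 412 bp into the gene reads 5.02 and 5.23 CPM on day 2, 28.8 and 31.4 on day 7, and 11.3 and 11.2 with Gdf11.

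Acvr2b, one of the type II receptor genes, had 48.2 and 48.9 CPM on day 2, 39.4 and 47.9 on day 3, 55.2 and 58.8 on day 6, 51.6 and 63.9 on day 7, and 43.9 and 56.4 with Gdf11. Both day 6 libraries lay above both day 3 libraries, and the day 7 groups overlapped. The rise from day 3 to day 6 was 1.31-fold (log2 0.39 ± 0.13, edgeR adjusted p = 0.032). It was lost without day 3 replicate 1 (0.25, adjusted p = 0.296), without day 6 replicate 1 (0.46, 0.0613) or replicate 2 (0.35, 0.142), and in DESeq2 (0.40, 0.0651). A region 1372 bp into the gene (chr9:119403424-119403676) rose in the same step from 5.05 ± 0.413 to 8.88 ± 0.799 CPM (adjusted p = 0.0368). One at 23348 bp (chr9:119425385-119425668) went from 0.548 ± 0.266 on day 7 to 2.37 ± 0.464 CPM with Gdf11 (adjusted p = 0.0227). The first call was lost when any 1 of its 4 libraries was left out (log2 0.73 to 0.93, adjusted p 0.102 to 0.248). The second was lost without day 7 replicate 1 (1.67, 0.325) or replicate 2 (2.66, 0.0639) and without Gdf11 replicate 1 (1.94, 0.238). The promoter region (chr9:119401729-119402503), the most accessible one, had group means of 26.5 to 33.7 CPM and no call.

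Acvr2a, the other type II receptor gene, went from 34.1 and 39.2 CPM on day 2 over 40.2 and 47.3 on day 3 and 50.2 and 53.1 on day 6 to 53.3 and 52.9 on day 7, and had 45.1 and 52.4 with Gdf11. Neighbouring groups up to day 6 did not overlap, yet no step passed the test, with adjusted p of 0.168 and 0.178 for the first 2 steps. Its promoter region (chr2:48813516-48814454) held group means of 26.1 to 40.3 CPM, with no call. A region 53876 bp from the start (chr2:48867831-48868140) fell from 2.95 ± 0.110 on day 2 to 0.730 ± 0.192 CPM on day 3 (edgeR adjusted p = 0.0205), which was lost without day 2 replicate 1 (log2 -2.01, 0.0799) or day 3 replicate 1 (-1.79, 0.17).

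Tgfbr1, the gene of Alk5, had group means of 63.6 ± 7.71, 67.3 ± 16.4, 73.3 ± 6.82, 77.6 ± 11.1 and 69.99 ± 15.2 CPM from day 2 to day 7 with Gdf11 (SD, n = 2). In each of the 5 comparisons the libraries of the groups overlapped. Replicate 2 lay above replicate 1 in every group, and overlap between groups does not allow for this order. Its promoter region (chr4:47352838-47353704) had the highest mean level of any of the 89 regions, at 42.3 to 51.1 CPM by group, with no call. A weaker region inside the gene (chr4:47405624-47405910) rose from 0.612 ± 0.456 on day 3 to 2.73 ± 0.014 CPM on day 6 (adjusted p = 0.0257). Another (chr4:47407288-47407461) held 3 counts over both day 2 and 30 over both day 3 libraries, a ratio of 9.20 with a counting interval of 2.86 to 47.1 (adjusted p = 0.025). The first was lost without day 3 replicate 2 (log2 1.52, 0.205) and without day 6 replicate 1 (2.04, 0.0995) or replicate 2 (2.01, 0.0651). The second was lost without day 2 replicate 2 (2.18, 0.203) or day 3 replicate 1 (2.22, 0.334).

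Wfikkn1 was the gene of the 10 that changed most, both along the course and with Gdf11. Its libraries had 16.2 and 20.5 CPM on day 2, 42.4 and 37.4 on day 3, 44.6 and 43.1 on day 6, 57.9 and 76.7 on day 7, and 26.8 and 32.3 with Gdf11. No groups overlapped, and the order was day 2, day 7 with Gdf11, day 3, day 6 and untreated day 7. Day 3 and day 6, neighbours in that order, did not differ by the test (log2 0.13 ± 0.14, edgeR adjusted p = 0.566), and the Gdf11 group was not tested against its neighbours day 2 and day 3. Wfikkn1 rose 2.20-fold from day 2 to day 3 (log2 1.13 ± 0.16, adjusted p = 1.39e-06) and 1.52-fold from day 6 to day 7 (0.61 ± 0.14, adjusted p = 0.00682). With Gdf11 it was 2.27-fold lower than on untreated day 7 (log2 -1.18 ± 0.14, adjusted p = 2.99e-07) and 1.49-fold lower than on day 6 (-0.58 ± 0.14, adjusted p = 0.0265). Its first rise and its fall against day 7 passed in all 13 alternatives. Leaving out day 7 replicate 1 gave -1.39 and leaving out replicate 2 gave -1.001, and the other alternatives lay between these. The rise by day 7 was lost without day 7 replicate 2 (0.43, adjusted p = 0.22) and without day 6 replicate 2 (0.61, 0.0561). The fall against day 6 was lost without the Gdf11 replicate 1 (-0.45, 0.305), without day 6 replicate 1 (-0.55, 0.198) or replicate 2 (-0.59, 0.102), and in DESeq2 (-0.55, 0.0908).

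Both Wfikkn1 regions took part, and the one inside the gene was the steadier. The region centred 412 bp from the start (chr17:25880228-25880664) had 5.02 and 5.23 CPM on day 2, 16.5 and 17.5 on day 3, 22.3 and 23.7 on day 6, 28.8 and 31.4 on day 7, and 11.3 and 11.2 with Gdf11. The 2 libraries of each group were close and no groups overlapped. It rose 3.30-fold by day 3 (log2 1.72 ± 0.22, edgeR adjusted p = 2.95e-08), and with Gdf11 it was 2.67-fold below day 7 (-1.41 ± 0.19, adjusted p = 1.11e-06) and 2.04-fold below day 6 (-1.03 ± 0.19, adjusted p = 0.000603). These 3 calls passed in all 11 alternatives run on regions. The region centred at -519 bp (chr17:25881092-25881662) had 11.2 and 15.3 CPM on day 2, 25.9 and 19.9 on day 3, 22.3 and 19.4 on day 6, 29.1 and 45.4 on day 7, and 15.5 and 21.1 with Gdf11. The untreated day 7 libraries were the highest, but they stood far apart. Here the changes were 0.81 ± 0.21 by day 3 (adjusted p = 0.00496), 0.81 ± 0.20 from day 6 to day 7 (0.018) and -1.02 ± 0.20 with Gdf11 against day 7 (0.000554). Without day 7 replicate 2 the last was -0.70 (adjusted p = 0.114) and the step from day 6 to day 7 was 0.50 (0.595), which without day 6 replicate 2 was 0.75 (0.152). The day 3 step was lost without replicate 1 of day 2 (0.59, 0.118) or of day 3 (0.57, 0.14). This upstream region lay 234 bp from the Wfikkn1 span and 452 bp from that of Rab40c, and the one inside lay 1450 bp from Rab40c. Its 17 bases of overlap with the promoter window do not include the SMAD box.

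From day 6 on the summed neural, neuromesodermal progenitor and presomitic mesoderm markers all moved in the same directions as Wfikkn1. The 5 neural genes (Sox1, Pax6, Pax3, Neurog2 and Hes5), none at 0, summed to 545 to 558 CPM on day 2 and 538 to 565 on day 3. They summed to 657 to 708 on day 6, 906 to 971 on untreated day 7 and 552 to 626 with Gdf11. All 5 fell with Gdf11 against day 7, where 11.2% of all genes fell, and 4 of 5 rose from day 6 to day 7, where 3.54% rose. The 10 neuromesodermal progenitor markers summed to 433 to 470 CPM on day 2 and 698 to 710 on day 3. Their sum was 560 to 561 on day 6, 610 to 678 on day 7 and 453 to 465 with Gdf11, where 5 fell against day 7. The 5 presomitic mesoderm markers went from 181 to 188 CPM on day 6 to 219 to 242 on day 7. With Gdf11 they were at 155 to 156, and 2 fell against day 7. The epiblast and endoderm sums were lower on day 7 than on day 6 and higher with Gdf11 than on day 7. The part of these changes in the Wfikkn1 result was not tested.

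Wfikkn2, the gene of the second large antagonist, had 12.4 and 13.3 CPM on day 2, 16.1 and 14.1 on day 3, 21.2 and 23.8 on day 6, 19.9 and 20.5 on day 7, and 16.7 and 14.6 with Gdf11. Day 6 was the highest group, and the Gdf11 libraries lay below those of day 6 and day 7. The rise from day 3 to day 6 was 1.47-fold (log2 0.56 ± 0.17, edgeR adjusted p = 0.0194), and was lost without day 3 replicate 2 (0.47, adjusted p = 0.126) and without day 6 replicate 2 (0.48, 0.134). With Gdf11 the differences were -0.36 ± 0.17 against day 7 (adjusted p = 0.174) and -0.51 ± 0.17 against day 6 (0.12), neither past the threshold. Whether Wfikkn1 and Wfikkn2 differed in their response was not tested.

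The most accessible Wfikkn2 region (chr11:94236073-94236363), inside the gene, held 5.96 to 8.14 CPM by group with no call. Regions at chr11:94228302-94228562 and chr11:94255088-94255378, outside the span on either side, rose from day 2 to day 3, the first from 0.340 ± 0.111 to 1.61 ± 0.241 CPM (edgeR adjusted p = 0.0264) and the second from 1.05 ± 0.0004 to 3.23 ± 0.125 CPM (adjusted p = 0.0351). A region inside the gene (chr11:94246419-94246565) was at 0 in both day 3 libraries. Its day 6 level of 1.03 ± 0.686 CPM was at least 6.44-fold higher, with 3 counts over the day 3 group as the floor (adjusted p = 0.00592). The first call was lost without day 2 replicate 1 (log2 2.58, 0.0851) or replicate 2 (1.89, 0.154) and without day 3 replicate 1 (1.98, 0.165). The second was lost when any 1 of its 4 libraries was left out (1.56 to 1.62, adjusted p 0.13 to 0.169). The third was lost without replicate 1 of day 3 (adjusted p = 0.0852) or of day 6 (0.156).

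Fst, the follistatin gene, rose by day 3, fell by day 6 and was higher after Gdf11 than on day 6. It had 63.8 and 71.9 CPM on day 2, 87.2 and 91.8 on day 3, 61.1 and 62.5 on day 6, 67.7 and 77.5 on day 7, and 73.7 and 98.4 with Gdf11. Day 3 stood above days 2 and 6 without overlap, and the Gdf11 libraries overlapped those of day 7. It rose 1.32-fold by day 3 (log2 0.40 ± 0.12, edgeR adjusted p = 0.0115) and fell 1.45-fold by day 6 (-0.53 ± 0.12, adjusted p = 0.000927), the latter in all 13 alternatives. The rise was lost in DESeq2 (0.35, 0.0627), without day 2 replicate 1 (0.31, 0.125) and with day 3 replicate 2 left out (0.35, 0.0557). With Gdf11 it was 1.39-fold above day 6 (0.47 ± 0.12, adjusted p = 0.0222), which was lost without the Gdf11 replicate 2 (0.23, 0.388) and without day 6 replicate 1 (0.46, 0.19) or replicate 2 (0.49, 0.0984). Against untreated day 7 the difference of 0.25 ± 0.12 missed the threshold (adjusted p = 0.156), and it passed without the Gdf11 replicate 1 (0.42, 0.0355), with library size alone (0.40, 0.0063) and with regions inside or within 1000 bp of the gene (0.43, 0.0413).

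The main Fst region (chr13:114458360-114459416), at the end of the span with the higher coordinates, had 22.4 and 28.2 CPM on day 2, 39.8 and 41.1 on day 3, 25.5 and 24.6 on day 6, 26.3 and 27.0 on day 7, and 32.9 and 43.5 with Gdf11. It was high on day 3 and with Gdf11 and lower in the other groups, with no overlap between these. The log2 changes were 0.68 ± 0.17 by day 3 (edgeR adjusted p = 0.00355), -0.69 ± 0.17 by day 6 (0.00248), 0.60 ± 0.17 with Gdf11 against day 6 (0.0354) and 0.52 ± 0.17 against day 7, which missed the threshold (0.0713). Only the fall by day 6 passed in all 11 alternatives on regions. The first rise was lost without day 2 replicate 1 (0.51, 0.123). The call against day 6 was lost without day 6 replicate 1 (0.63, 0.2) or replicate 2 (0.59, 0.21) and without the Gdf11 replicate 2 (0.37, 0.623), and in DESeq2 (0.63, 0.0567). The difference from day 7 passed without the Gdf11 replicate 1 (0.69, 0.0437), with library size alone (0.67, 0.00435) and with the 4 libraries of the comparison only (0.56, 0.0235). A region at chr13:114447268-114447552 fell from 3.47 ± 1.23 on day 3 to 1.19 ± 0.130 CPM on day 6 (adjusted p = 0.0192). That call was lost without day 3 replicate 1 (-1.10, 0.347) and without day 6 replicate 1 (-1.67, 0.133) or replicate 2 (-1.46, 0.12). No promoter window or strand is printed for Fst, and 2 of its regions met the promoter window of the neighbouring gene Gm41074.

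Fstl3, the gene of follistatin-like 3, had 1 region (chr10:79779963-79781061), inside its span, 3238 bp from the start and 413 bp from the span of Prss57. It held 41.1 and 51.3 CPM on day 2, 48.2 and 60.0 on day 3, 39.5 and 40.8 on day 6, 36.2 and 48.9 on day 7, and 37.6 and 43.3 with Gdf11. Both day 6 libraries lay below both day 3 libraries, and the day 7 groups overlapped. As a gene it fell 1.34-fold from day 3 to day 6 (log2 -0.42 ± 0.14, edgeR adjusted p = 0.0306). The same counts in the region table, whose dispersion is estimated over single regions, gave -0.43 ± 0.16 and an adjusted p of 0.0596. The gene call was lost without day 3 replicate 2 (-0.28, 0.237) and without day 6 replicate 1 (-0.38, 0.176) or replicate 2 (-0.44, 0.0768), and in DESeq2 (-0.42, 0.0798). The region passed with library size alone (-0.43, 0.0233) and without day 3 replicate 1 (-0.58, 0.0213). With Gdf11 it differed from day 7 by -0.06 ± 0.14.

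Per kb of accessible region, averaged over the 10 libraries, Fstl3 had 40.6 CPM per kb, Wfikkn1 39.5, Gdf11 36.0, Fst 25.7, Acvr2b 19.4, Tgfbr1 19.0, Acvr2a 17.8, Acvr1b 13.5, Wfikkn2 8.86 and Mstn 6.98. The patterns most like that of Gdf11 over the 10 libraries, by Pearson correlation of log2 CPM among 9490 genes, were those of Arrb2 (r = 0.965), Smg1 (0.96) and Glt28d2 (0.958). For Wfikkn1 they were Tcf7l2, which encodes a Wnt effector (0.985), Rpl34 (0.983) and Nvl (0.979). These values describe 10 libraries in 5 groups that share depth and scaling.

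Among 41 other genes of the Gdf11, activin, Nodal and TGF-beta pathway, 40 were tested. From day 2 to day 3, 3 rose and 7 fell (12.3% and 10.5% of all genes). Pcsk5, whose protease activates the Gdf11 precursor, rose from 38.4 ± 0.188 to 58.9 ± 2.38 CPM (edgeR adjusted p = 0.000243) and the ligand gene Tgfb2 from 39.3 ± 2.33 to 57.3 ± 1.68 (0.0007). Tdgf1, the Nodal co-receptor gene, fell from 49.0 ± 5.34 to 32.6 ± 0.545 CPM (0.00198) and Pmepa1, a Smad target and inhibitor, from 82.0 ± 3.06 to 61.8 ± 2.25 (0.00331). From day 3 to day 6, 6 rose and 6 fell (9.51% and 10.8% of all genes). Pcsk5 rose further, to 92.0 ± 4.41 CPM (4.29e-05), and Fkbp1a, whose product holds type I receptors inactive, rose 1.49-fold (0.000418). Nodal fell 2.02-fold (1.78e-06) and Lefty2, a gene of a Nodal inhibitor, 2.73-fold (1.25e-09). From day 6 to day 7, 2 rose and 0 fell (3.54% and 0.685% of all genes): Smad3, the gene of a transducer of the pathway, 1.46-fold (0.000388) and Tgif1, a co-repressor gene, 1.29-fold (0.00679). The Tgif1 call was lost without day 6 replicate 2 (log2 0.37, 0.0724), the Smad3 call with regions within 10000 bp (0.31, 0.186), and the fall of Lefty2 with regions inside or within 1000 bp of the gene (-0.0013, 0.999).

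With Gdf11 against untreated day 7, 2 of the 40 rose and 3 fell (2.07% and 11.2% of all genes). With library size alone 9 rose and 1 fell. Pmepa1 rose from 80.5 ± 4.82 to 133 ± 5.77 CPM (1.65-fold, edgeR adjusted p = 1.83e-06) and Tgfb1, a ligand gene, from 20.4 ± 4.08 to 30.9 ± 9.30 (0.0228). Smad3 fell from 156 ± 5.41 to 96.5 ± 0.682 CPM (1.61-fold, 4.89e-06) and Ski, a gene of a Smad repressor, 1.26-fold (0.0194). The Tgfb1 call was lost without day 7 replicate 2 (log2 0.37, 0.279) or Gdf11 replicate 2 (0.19, 0.535). The Ski call was lost without day 7 replicate 1 (-0.36, 0.0631) or replicate 2 (-0.34, 0.0851), without Gdf11 replicate 1 (-0.30, 0.127) and with library size alone (-0.17, 0.222). Against day 6, 1 rose and 0 fell (0.648% and 1.27% of all genes), and that was Pmepa1 (1.67-fold, 2.33e-05). The median log2 changes of the 40 genes were -0.02, 0.07, 0.00, 0.02 and 0.00 in the 5 comparisons. In the authors' deposited motif table of regions up between day 7 and day 7 with Gdf11, the Smad4 motif stood in 58.1% of target and 37.7% of background sequences and the Smad2 motif in 55.6% and 36.5%, at ranks 11 and 13 of 414. In the authors' deposited table of regions down they stood in 40.9% against 43.8% and 41.1% against 43.1%. The labels say neither how the target regions were chosen nor in which group regions named up were the more open, and these tables do not name single regions.

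Peaks called in both libraries of a group were found at 30 of the 89 regions on day 2, 29 on day 3, 27 on day 6, 31 on day 7 and 29 with Gdf11. At the pair inside Acvr1b the count of libraries with a peak went from 0 on day 2 to 2 in each later group.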

How the data were processed

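ATAC-seq was measured in 10 libraries, 2 for each of 5 groups. The authors deposited raw counts per region, peak lists per library with a fold enrichment (a ratio) and a -log10 q for each peak, and motif tables with percent of sequences holding a motif and an enrichment score, a natural log of p. Per the submitters' processing notes, the tools were HOMER 4.10, bedtools, MACS2 2.1.1.20160309, SAMtools and HISAT2 2.1.0, on build mm10, and the counter is not given in the sources used here.

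The count tables hold no coordinates. Merging the 10 peak lists, with chromosomes sorted as characters, gave the counted number of 246799 regions, with 0 zero counts at a library's own peaks, against 1110 to 9822 in numeric order. Regions were assigned to 21883 protein-coding gene spans (RefSeq, GRCm38.p6, the assembly of mm10) within 50000 bp, 190569 in all. Counts were tested in edgeR 4.0.16 (R 4.3.3) with filterByExpr, TMM factors and quasi-likelihood F tests (two-sided) in 1 fit of all libraries, on 173175 regions and on sums for 18981 genes. Benjamini-Hochberg adjustment ran over all features of a comparison, at 0.05, and the procedure was tested on simulated counts. Log2 errors are standard errors, CPM errors the SD of 2 libraries. The common dispersion was 0.0402 over regions and 0.00703 over genes. Intervals and floors cover counting error only. Alternatives were library size only, RLE factors, no mitochondrial regions, no low-count filter, a replicate block, 4 libraries only, each library left out, DESeq2 1.42.0 and, for genes, assignment within 10000 or 1000 bp.

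The 10 genes, the pathway list, the marker lists and the motifs were chosen with earlier results of these data known. Named were all 10 genes, the most accessible region of each, the promoter region, up to 3 called regions per gene and comparison, up to 2 pathway genes per direction and comparison, and the 3 genes most correlated with Gdf11 and with the gene of smallest p.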

Additional observations from a re-analysis of the deposited data

How the results depend on the processing

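Assignment within 1000 bp also ended the calls of Gdf11 (against day 7), Acvr2b, Wfikkn1 (against day 6), Wfikkn2, Fst (against day 6) and Fstl3. It let Fst pass against day 7. Every region of Gdf11, Acvr2b, Wfikkn1 and Fstl3 lay within 1000 bp, so their counts were unchanged. Their log2 changes there were -0.37, 0.39, -0.57 and -0.42, close to the main values (edgeR adjusted p 0.0542 to 0.0714). What differed for them was the fit and adjustment, over 17068 genes in place of 18981. All 13 calls on the 10 genes and all 28 on their regions kept their sign in every alternative run on them. Of the gene calls 3 passed in all alternatives and of the region calls 7. Leaving out single libraries ended 10 and 21 of them, and DESeq2 ended 5 and 14. The cause was not tested, beyond the fewer libraries. Called regions fell in DESeq2 from 11 to 6 (day 3 against day 2), from 8 to 3 (day 6 against day 3), from 5 to 3 (Gdf11 against day 7) and from 3 to 1 (Gdf11 against day 6). The 14 were the calls on the regions of Acvr2a, Acvr2b, Tgfbr1 and Wfikkn2, both calls upstream of Acvr1b, 1 of the 2 of Mstn, and those of Acvr1b and Fst against day 6 and of the weaker Fst region. Among them, DESeq2 gave no adjusted p for chr15:101163094-101163231 (Acvr1b), chr11:94246419-94246565 (Wfikkn2) and chr4:47407288-47407461 (Tgfbr1), so these were not assessed rather than failed. Called genes fell in DESeq2 from 4 to 3 (day 3 against day 2), from 4 to 2 (day 6 against day 3), from 2 to 1 (Gdf11 against day 7) and from 2 to 1 (Gdf11 against day 6). Regions inside or within 1000 bp took them from 4 to 1 (day 6 against day 3) and from 2 to 0 (Gdf11 against day 6). The 4 called by day 3 all held there. Pathway calls went from 5 to 10 (Gdf11 against day 7) and from 1 to 2 (against day 6) with library size only, the first with 9 higher and 1 lower in place of 2 and 3, and from 2 to 1 (day 7 against day 6) within 10000 bp and within 1000 bp.

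With 1 library left out, in the order day 3, 6, 7, Gdf11 against day 7 and Gdf11 against day 6, called genes ran from 1 to 4, 1 to 3, 0 to 1, 1 to 2 and 0 to 2, called regions from 5 to 10, 3 to 9, 0 to 1, 2 to 6 and 1 to 2, and pathway calls from 9 to 11, 8 to 12, 1 to 2, 2 to 7 and 1 to 2. The lone library is then assumed to vary like the others.

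Over single regions, deviations of same-numbered libraries correlated at -0.001 to 0.033. Counting noise is large there, so these values do not decide whether replicate numbers pair the libraries. A replicate block raised the number of genes called over the series in all 5 comparisons. For Gdf11 against day 6 it went from 365 to 1017. For Tgfbr1, Acvr2b, Fst and Fstl3 replicate 2 lay above replicate 1 in every group, and the rest of the 10 genes were mixed. With a replicate block, pathway calls went from 12 to 19 (day 6 against day 3) and from 1 to 2 (Gdf11 against day 6), the fall of Gdf11 against day 6 passed (-0.40, adjusted p = 0.00333), and no call on the 10 genes or their regions was lost. With the block, the main Fst region also passed against day 7 (0.51, 0.0241), the Fstl3 region (-0.41, 0.0162) and the Gdf11 region at -274 bp (0.56, 0.0326) from day 3 to day 6, and the Gdf11 region at 2501 bp by day 3 (0.42, 0.0326) and with Gdf11 against day 6 (-0.51, 0.0394). Without the low-count filter all 89 regions were tested, the 24 with the fewest counts (21 to 76 over the 10 libraries) included, and 10, 9, 1, 5 and 3 were called, beside 11, 8, 1, 5 and 3 with it. A q of at least 5 on the -log10 scale left 25, 23, 18, 26 and 22 regions with peaks in both libraries, from day 2 to Gdf11. This too was not counted over all regions.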
